A study of Rattus norvegicus with 23 samples.

Results

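The glutathione S-transferases, enzymes that join glutathione to reactive electrophiles, were followed in rat liver through 10 genes: the alpha-class genes Gsta3 and Gsta4, the mu-class genes Gstm1, Gstm2 and Gstm3, the pi-class genes Gstp1 and Gstp3, the theta-class gene Gstt1, and the microsomal genes Mgst1 and Mgst2. The members were chosen by name, as probe sets annotated to a single listed gene, out of 14217 genes with such a probe set. Each of the 10 genes had exactly 1 such probe set on the Affymetrix rat array, so all 10 are accounted for. Male Sprague Dawley rats, 6 to 8 weeks of age, were dosed by oral gavage on 5 days, and the liver was sampled 24 h after dosing ended. Alpha-naphthylisothiocyanate (ANIT, 100 mg/kg), a toxicant of bile duct epithelium, was compared with corn oil at 5 ml/kg. Methylenedianiline (MDA, 100 mg/kg), an aromatic amine that also injures bile ducts, was compared with 35% ethanol at 2 ml/kg. Acetaminophen (APAP, 1000 mg/kg), an analgesic whose reactive quinone imine is scavenged by glutathione, was compared with corn oil at 2 ml/kg. Diclofenac (DCLF, 10 mg/kg), a non-steroidal anti-inflammatory drug, was compared with water at 10 ml/kg. Each group held 3 rats except water, which held 2, giving 23 arrays in 8 groups, each rat being a separate sample.

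Cytosolic transferases work as pairs of subunits and are grouped by sequence into classes, whereas the microsomal forms are membrane proteins of separate origin. The conjugates they make leave the hepatocyte through export pumps and are trimmed to mercapturates. Many transferase genes are known targets of NRF2, a transcription factor that answers electrophiles through antioxidant response elements, and some also answer the nuclear receptors CAR and PXR or the aryl hydrocarbon receptor (AhR).

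All values below are log2 expression values as normalised by robust multichip averaging (RMA), and samples are named by group and number. A level belongs to a probe set, so levels were compared between samples and not between genes. Transferases of a class resemble each other in sequence, and signal shared between close relatives was not tested. A difference was called when limma gave a Benjamini-Hochberg adjusted p under 0.05 over all 31042 probe sets and the fold change was over 1.5. On 3 arrays of the ANIT study (corn oil 5 ml/kg sample 2, ANIT samples 1 and 2) the brightest probe set read 14.57 to 14.97, against 15.86 to 15.99 on the other 20 arrays. This touches the brightest members, Gstm1 and Mgst1, in that study. Hepatocyte markers had 0 of 7 measured genes called under any of the compounds, and their mean log2 value ran from 14.212 to 15.053 in the ANIT group and from 14.227 to 14.952 in its vehicle. Outside that study the lowest mean was 14.726, under MDA, where the groups overlapped (14.726 to 14.928 against 14.86 to 14.989). Under APAP the mean was 14.772 to 14.867, wholly below the 14.975 to 15.037 of its vehicle. Under DCLF it overlapped the vehicle (14.957 to 15.008 against 14.913 to 15.005). The part of the lower APAP values in the transferase changes was not tested. These markers lie near the brightest readings of the 3 arrays, so their ranges in the ANIT study may also carry that array difference, which was not tested. In whole liver, fewer cells of a type and less RNA per cell cannot be told apart.

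Transferases changed under ANIT, MDA and APAP, with Gsta3 higher under all 3, Gstm3 higher and Gstp3 lower under ANIT and MDA, and Gstp1 higher under MDA and APAP. Under ANIT 3 members were called higher and 1 lower, where 2.63% of all probe sets were called higher and 2.75% lower (5.38% in all). Under MDA 6 were called higher and 1 lower, against 3.24% and 3.78% of all probe sets (7.02% in all). Under APAP 4 were called higher and 0 lower, where 0.139% of all probe sets were called higher and 0.0709% lower (0.209% in all). With any 1 of the 6 animals of the APAP comparison left out, that count came to 1 or 2, and Gsta3 was called each time. The MDA count of 7 came to 4 without MDA sample 2 or 3. Under DCLF limma called 0 members and 0% of all probe sets. At an unadjusted p under 0.05 DCLF had 1 member, Gsta4, where 12.5% of all probe sets passed, and the t-test of the study's methods also called 0 members. With adjusted p that t-test called 1 member under ANIT (Gstm3), 0 under MDA and 0 under APAP, so it lost the other calls against a vehicle. The share of all probe sets called by that t-test, or with an animal left out, is not given. These losses therefore cannot be set against a background.

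Every compound sample lay above every vehicle sample for 6 members under ANIT (11.5% of all probe sets), 7 under MDA (13.7%), 8 under APAP (9.21%) and 1 under DCLF (12.3%). Every compound sample lay below for 1 member under ANIT (17.3%), 2 under MDA (16.4%), 0 under APAP (6.8%) and 3 under DCLF (19.3%). Between compounds, the ANIT effect exceeded the APAP effect for 1 member and lay below it for 3, where 2.25% and 1.82% of all probe sets were called. The MDA effect exceeded the APAP effect for 1 member and lay below it for 4, against 2.65% and 2.44%. Both comparisons use the same APAP and vehicle samples. The ANIT effect exceeded the MDA effect for 1 member and lay below it for 0, against 0.551% and 0.612%, and the APAP effect exceeded the DCLF effect for 2 members and lay below it for 0, against 0.0709% and 0%.

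Gsta3 was called under 3 compounds, and Gsta4, Gstm1, Gstm3, Gstp1 and Gstp3 under 2 each. Gstm2 was called under MDA alone and Mgst2 under APAP alone, while Gstt1 and Mgst1 were called under none. The median log2 change of the 10 members was 0.43 under ANIT, 0.62 under MDA, 0.59 under APAP and -0.04 under DCLF. The median over all probe sets was -0.02 under ANIT, -0.00095 under MDA, 0.01 under APAP and -0.02 under DCLF.

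**Figure D1:**
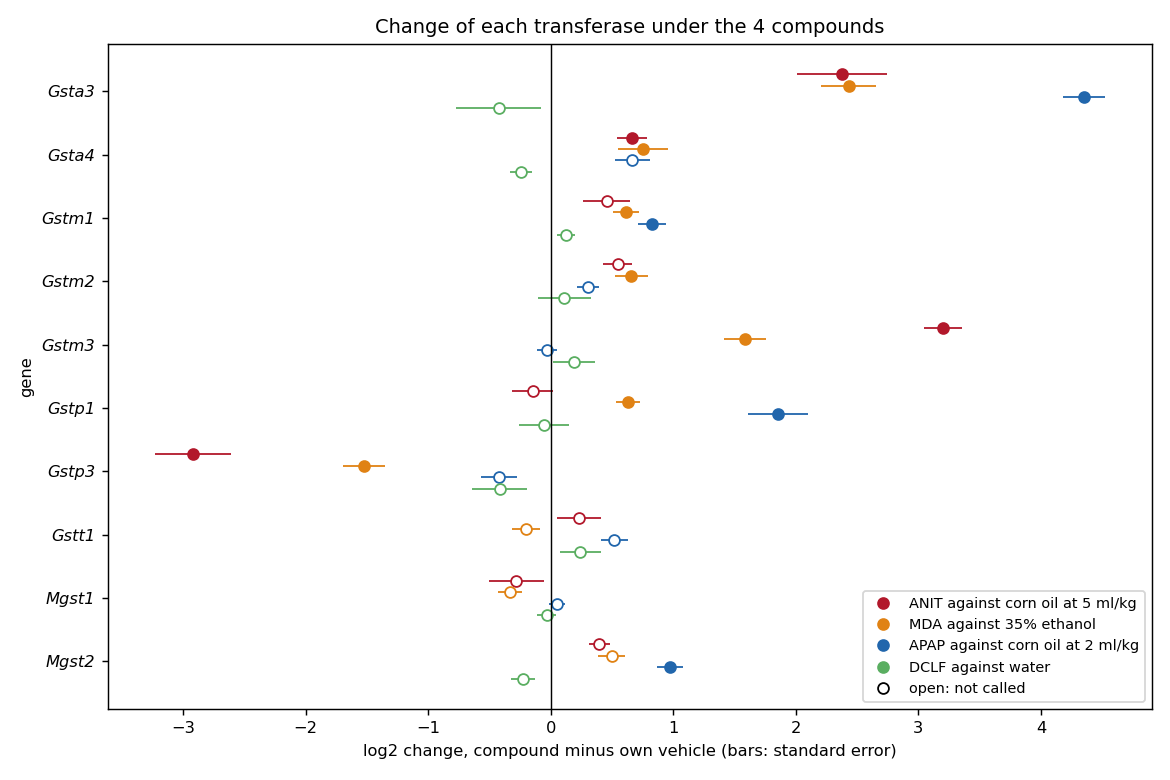
Log2 change of each of the 10 transferase genes (rows) under ANIT, MDA, APAP and DCLF against the vehicle of the same study; points are limma estimates, bars are standard errors, and filled points passed the call. Gsta3 lies furthest right under APAP at 4.35, Gstm3 reaches 3.20 under ANIT and -0.03 under APAP, and Gstp3 lies furthest left at -2.92 under ANIT.

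Gsta3 encodes an alpha-class subunit, also listed as Yc2 in RefSeq, of a form known for conjugating the epoxide of aflatoxin. Its log2 values were 12.32, 12.01 and 12.30 in the APAP samples and 8.06, 7.45 and 8.07 in corn oil at 2 ml/kg. Every APAP sample thus stood more than 3 log2 units above every vehicle sample. The change was 4.35 ± 0.173 on the log2 scale, or 20.4-fold (adjusted p = 7.95e-05), the largest rise of all 31042 probe sets under APAP.

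Under ANIT the Gsta3 values were 12.11, 11.94 and 12.07, against 10.03, 8.67 and 10.29 in corn oil at 5 ml/kg. Vehicle sample 2, the lowest, is on an array with the lower brightest value. The groups did not overlap, and the log2 change was 2.38 ± 0.369 (adjusted p = 0.00767). With any 1 animal left out it ran from 1.88 to 2.69 and stayed called. Under MDA the values were 11.02, 11.94 and 11.74, against 9.32, 9.18 and 8.91 in 35% ethanol, again with no overlap, and the log2 change was 2.43 ± 0.226 (adjusted p = 0.00065). These were the 31st and 22nd largest rises among all probe sets under ANIT and MDA. Under DCLF the values were 8.64, 7.43 and 7.43, against 8.37 and 8.15 in water, so the groups overlapped (log2 change -0.42 ± 0.349, adjusted p = 0.642).

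The treated levels of Gsta3 lay closer together than the changes did. Group means were 12.21 under APAP, 12.04 under ANIT and 11.57 under MDA, while the vehicle means ran from 7.86 in corn oil at 2 ml/kg to 9.66 in corn oil at 5 ml/kg. Among the 10 members Gsta3 had the widest spread of vehicle means, 1.80 log2 units, with the other members at 0.20 to 0.53. Water (mean 8.26) and corn oil at 2 ml/kg (7.86) were given in the same in-life study, which held the APAP and DCLF rats. For corn oil, the volume given and the study cannot be told apart. The effect of ANIT was smaller than that of APAP (difference -1.97 ± 0.456 log2 units, adjusted p = 0.0273), a difference called at a background of 4.07% of all probe sets. That call was lost without ANIT sample 2 (-1.93), APAP sample 1 (-1.92) or 3 (-1.93), corn oil 5 ml/kg sample 1 (-1.79) or 3 (-1.66), or corn oil 2 ml/kg sample 2 (-1.77). With any 1 animal left out the difference ran from -2.47 to -1.66. The effect of MDA was also smaller than that of APAP (difference -1.92 ± 0.317, adjusted p = 0.00443, background 5.09%). ANIT and MDA differed by -0.05 with a 95% interval of -1.10 to 0.99. The APAP effect exceeded the DCLF effect by 4.77 ± 0.426 (adjusted p = 0.00133, background 0.0709%).

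Promoter windows from RefSeq (assembly GRCr8) were found for 8 of the 10 members, in 9 windows because Gsta3 had 2. Each window was searched on both strands for TGACNNNGC, the core of the antioxidant response element, and for GCGTG, the core of the AhR site. It was also searched for TGACTCA, the AP-1 site, which can overlap the first motif. The antioxidant core occurred in 2 of the 9 windows, those of Gsta3 and Gstp1, and in 12.1% of all 33469 windows of the same length. The AP-1 site was in 1 window (4.63% of all) and the AhR core in 4 (29.7% of all). A match describes letters only and is not evidence of binding. The 250 bases upstream of the first Gsta3 start are shown because Gsta3 rose under 3 compounds (chr9:31154739-31154988, + strand), with the antioxidant core in capitals, its first base at position -17 from the start.
Gsta3: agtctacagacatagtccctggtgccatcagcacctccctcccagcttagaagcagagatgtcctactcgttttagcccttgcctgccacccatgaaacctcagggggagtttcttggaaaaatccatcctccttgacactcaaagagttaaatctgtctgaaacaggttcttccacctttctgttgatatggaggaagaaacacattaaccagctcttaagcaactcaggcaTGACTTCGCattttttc

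Gsta4 encodes the alpha-class subunit that favours reactive lipid aldehydes. Log2 values were 12.50, 12.65 and 12.22 under ANIT against 11.71, 11.76 and 11.93 in corn oil at 5 ml/kg, with no overlap. The log2 change was 0.66 ± 0.123 (adjusted p = 0.0152). Under MDA the values were 12.37, 13.20 and 13.16 against 12.15, 12.17 and 12.15, again without overlap, and the log2 change was 0.75 ± 0.203 (adjusted p = 0.0457).

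The ANIT call was lost without ANIT sample 2 (0.56) or corn oil 5 ml/kg sample 1 (0.61) or 2 (0.64). The MDA call was lost without MDA sample 2 (0.61) or 3 (0.63), or ethanol sample 1 (0.75), 2 (0.76) or 3 (0.75). In each of these except ANIT without sample 2, where the fold fell short, the call was lost on the adjusted p. Under APAP the values were 12.76, 12.96 and 12.51 against 12.13, 12.26 and 11.83, and all 3 APAP samples lay above the vehicle. The log2 change of 0.67 ± 0.143 was not called (adjusted p = 0.168). Under DCLF the values were 11.89, 11.96 and 12.09 against 12.25 and 12.20 in water, all below the vehicle (log2 change -0.25 ± 0.0897, adjusted p = 0.353). The ANIT effect on Gsta4 differed from the APAP effect by -0.01 (95% interval -0.45 to 0.44) and from the MDA effect by -0.09 (-0.66 to 0.48).

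Gstm3, a mu-class gene, separated ANIT and MDA from APAP most clearly. In the ANIT samples it had log2 values of 13.00, 12.66 and 12.58, against 9.79, 9.57 and 9.27 in corn oil at 5 ml/kg, a gap of more than 2 units between the groups. The log2 change was 3.20 ± 0.157, or 9.20-fold (adjusted p = 0.000102), the 8th largest rise of all probe sets. Under MDA the values were 11.00, 11.43 and 11.56 against 9.75, 9.50 and 9.99, without overlap, and Gstm3 rose by 1.59 ± 0.171 (adjusted p = 0.00116).

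Under APAP, by contrast, the Gstm3 values were 9.72, 9.80 and 9.66, against a vehicle range of 9.66 to 9.84. Samples 1 and 2 lay inside that range and sample 3 just below it (9.6598 against 9.6611). The log2 change was -0.03 with a 95% interval of -0.21 to 0.15 (adjusted p = 0.927). Under DCLF the values were 10.25, 9.88 and 9.71 against 9.92 and 9.59 in water, and the groups overlapped (0.19 ± 0.172, adjusted p = 0.679). The ANIT effect exceeded the MDA effect by 1.62 ± 0.253 (adjusted p = 0.0107, background 1.16%). It exceeded the APAP effect by 3.23 ± 0.186 (adjusted p = 3.17e-06), and the MDA effect exceeded the APAP effect by 1.61 ± 0.203 (adjusted p = 0.00082). All 3 differences were called under every alternative with limma, and the t-test of the study's methods was not run for differences. ANIT and MDA livers also held more signal of bile duct cells: of 9 cholangiocyte markers 3 were called higher in each (Epcam, Sctr and Anxa4), 0 lower, and 0 in either direction under APAP or DCLF. Epcam changed by 2.16 ± 0.156 and Anxa4 by 0.66 ± 0.145 under ANIT, and Epcam by 1.10 ± 0.14 and Sctr by 0.82 ± 0.153 under MDA. The mean log2 value of the 9 markers was 9.232 to 9.601 under ANIT against 8.626 to 8.767 in its vehicle. It was 9.438 to 9.678 under MDA against 8.961 to 9.149, and 8.796 to 8.92 under APAP against 8.735 to 8.942. Their part in the Gstm3 rise was not tested.

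The window upstream of Gstm3 (chr2:198300668-198300917, - strand, RefSeq GRCr8) is shown as that of the member with the widest spread between ANIT and APAP. It held none of the 3 motifs. AhR cores are not put in capitals in any window shown.
Gstm3: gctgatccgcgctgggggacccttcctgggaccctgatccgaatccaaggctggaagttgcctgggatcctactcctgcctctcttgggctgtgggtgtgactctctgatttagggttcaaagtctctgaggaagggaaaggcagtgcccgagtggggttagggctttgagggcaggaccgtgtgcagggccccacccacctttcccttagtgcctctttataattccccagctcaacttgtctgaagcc

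Gstm1, which encodes an abundant mu-class subunit of adult liver, had log2 values of 14.94, 15.24 and 15.24 under MDA against 14.60, 14.49 and 14.48 in ethanol. The groups did not overlap, and the log2 change was 0.61 ± 0.107 (adjusted p = 0.00823). The call was lost without MDA sample 2 (0.57) or 3 (0.56), and after quantile normalisation (0.54), where the fold change came under 1.5. Under APAP the values were 14.96, 15.08 and 14.81 against 14.28, 14.16 and 13.93, all above the vehicle, and Gstm1 rose by 0.83 ± 0.112 (adjusted p = 0.0434). That call was lost when any of the 6 animals was left out: APAP sample 1 (0.82), 2 (0.76) or 3 (0.90), or corn oil 2 ml/kg sample 1 (0.91), 2 (0.85) or 3 (0.73).

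Under ANIT the Gstm1 values were 14.42, 14.29 and 15.07 against 14.22, 14.02 and 14.17, and ANIT sample 3 stood well above the other two. The log2 change of 0.46 ± 0.19 was not called (adjusted p = 0.198). ANIT samples 1 and 2 are on arrays with the lower brightest value, and after quantile normalisation the change was 0.94 and was called (adjusted p = 0.0257). Without ANIT sample 3 it was 0.22 and was not called. Under DCLF the values were 14.21, 14.17 and 14.17 against 14.05 and 14.07 in water (0.13 ± 0.0749, adjusted p = 0.521).

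Gstm2, the neighbouring mu-class gene, had log2 values of 13.20, 13.59 and 13.38 under MDA against 12.76, 12.54 and 12.89, with no overlap. It rose by 0.66 ± 0.132 (adjusted p = 0.0145), and the call was lost without MDA sample 2 (0.56) or ethanol sample 2 (0.56). Under ANIT the values were 13.84, 13.55 and 13.79 against 13.19, 13.00 and 13.35. The ANIT change of 0.55 ± 0.119 had an adjusted p of 0.0275 but fell short of the fold threshold at 1.46-fold. It passed without ANIT sample 2 (0.64) or corn oil 5 ml/kg sample 3 (0.64), and after quantile normalisation (0.68). Under APAP the values of 13.52, 13.62 and 13.41 lay just above the vehicle values of 13.30, 13.08 and 13.26 (0.30 ± 0.0906, adjusted p = 0.323), and under DCLF the groups overlapped (0.11 ± 0.214, adjusted p = 0.859). Gstm3, Gstm2 and Gstm1 follow each other on chromosome 2 in RefSeq. Over this run of genes the log2 changes under ANIT were 3.20, 0.55 and 0.46, and under APAP -0.03, 0.30 and 0.83.

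The pi-class genes Gstp1 and Gstp3 are direct neighbours on chromosome 1 in RefSeq with no gene between them, and under MDA they moved in opposite directions. Gstp1, the placental form known as a marker of preneoplastic foci in rat liver, had log2 values of 13.47, 12.42 and 12.65 under APAP against 11.04, 10.79 and 11.14 in corn oil at 2 ml/kg. All 3 APAP samples lay above the vehicle, with sample 1 the highest. Gstp1 rose by 1.86 ± 0.248, or 3.62-fold (adjusted p = 0.041), the 11th largest rise of all probe sets. The call was lost without APAP sample 2 (2.07) or 3 (1.95), or corn oil 2 ml/kg sample 1 (1.88), 2 (1.75) or 3 (1.93), while the size of the change stayed between 1.54 and 2.07.

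Under MDA the Gstp1 values were 11.61, 11.74 and 11.83 against 11.00, 11.08 and 11.21, without overlap, and it rose by 0.63 ± 0.098 (adjusted p = 0.00498). The call was lost without MDA sample 3 (0.58) or ethanol sample 1 (0.58). Under ANIT the values were 11.77, 11.31 and 11.06 against 11.54, 11.43 and 11.60, with ANIT samples on both sides of the vehicle (log2 change -0.15 ± 0.167, adjusted p = 0.692). Under DCLF the groups overlapped at 10.75, 11.23 and 11.23 against 10.85 and 11.40 (-0.05 ± 0.202, adjusted p = 0.934). The ANIT effect on Gstp1 lay below the APAP effect (difference -2.00 ± 0.333, adjusted p = 0.0048), a call kept under every alternative with limma. The MDA effect also lay below the APAP effect (difference -1.23 ± 0.293, adjusted p = 0.0279). That call was lost without MDA sample 1 (-1.17) or 2 (-1.23), ethanol sample 2 (-1.24) or 3 (-1.17), or corn oil 2 ml/kg sample 1 (-1.25) or 2 (-1.13). The ANIT and MDA effects differed by -0.77 ± 0.205, which was not called (adjusted p = 0.102), but passed without ANIT sample 1 (-0.97, adjusted p = 0.0102) and after quantile normalisation (-0.78, adjusted p = 0.043).

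Gstp3 was the only member called lower. Log2 values were 9.45, 10.69 and 10.35 under ANIT against 12.69, 13.27 and 13.28 in corn oil at 5 ml/kg, a gap of nearly 2 units between the groups. It fell by 2.92 ± 0.31, a 7.55-fold decrease (adjusted p = 0.00177), the 12th largest decrease of all probe sets. Under MDA the values were 11.39, 11.54 and 12.00 against 13.43, 13.06 and 13.01, again without overlap, and Gstp3 fell by 1.52 ± 0.173 (adjusted p = 0.00141).

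Under APAP the Gstp3 values were 13.32, 12.97 and 12.79 against 13.61, 13.27 and 13.45, so sample 1 reached into the vehicle range (log2 change -0.42 ± 0.145, adjusted p = 0.384). Under DCLF they were 12.20, 13.00 and 12.90 against 13.13 and 13.09, all below the vehicle (-0.42 ± 0.223, adjusted p = 0.484). The decrease under ANIT was deeper than under APAP (difference -2.50 ± 0.38, adjusted p = 0.0027), a call kept under every alternative with limma. The decrease under MDA was also deeper than under APAP (difference -1.10 ± 0.247, adjusted p = 0.0207), but the call was lost without MDA sample 2 (-1.05) or corn oil 2 ml/kg sample 2 (-1.02). ANIT and MDA differed by -1.39 ± 0.393, with a 95% interval of -2.25 to -0.54, and that difference was not called (adjusted p = 0.128).

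The windows upstream of Gstp1 (chr1:210769706-210769955, - strand) and Gstp3 (chr1:210787685-210787934, - strand), both RefSeq GRCr8, are shown because the genes are neighbours that moved in different directions under MDA. Capitals mark the antioxidant core, which in Gstp1 begins at position -61 from the start and overlaps an AP-1 site. The Gstp3 window holds neither and has no capitals. AhR cores stand in lower case, at position -190 in the Gstp3 window and -238 in the Gstp1 window.
Gstp1: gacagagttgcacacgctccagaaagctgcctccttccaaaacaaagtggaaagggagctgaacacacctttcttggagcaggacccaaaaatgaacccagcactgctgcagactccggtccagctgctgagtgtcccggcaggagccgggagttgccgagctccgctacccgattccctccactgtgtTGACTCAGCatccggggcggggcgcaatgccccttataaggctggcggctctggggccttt
Gstp3: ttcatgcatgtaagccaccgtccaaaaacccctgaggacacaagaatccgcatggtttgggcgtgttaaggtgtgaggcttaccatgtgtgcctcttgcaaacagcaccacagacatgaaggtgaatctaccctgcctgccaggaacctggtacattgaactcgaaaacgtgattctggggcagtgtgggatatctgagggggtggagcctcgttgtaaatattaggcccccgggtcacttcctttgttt

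**Figure D2:**
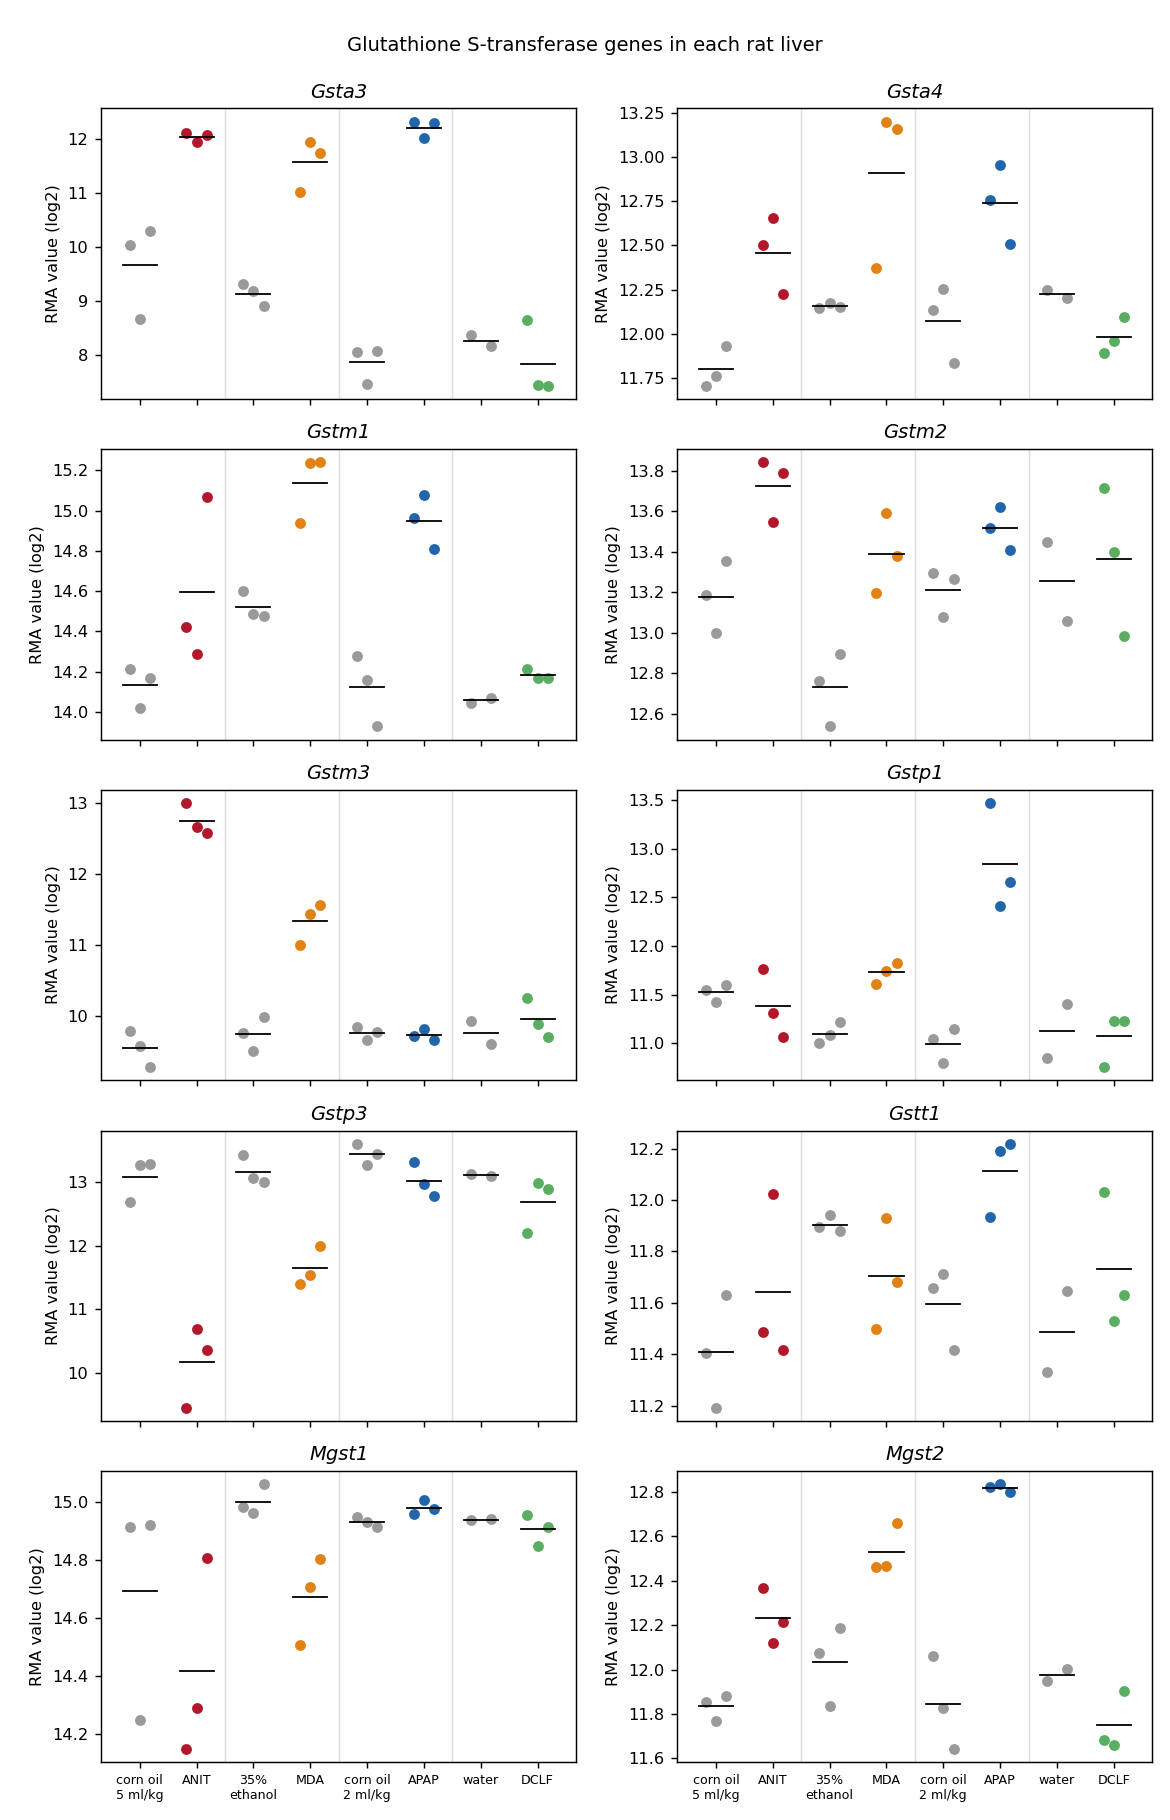
Log2 RMA value of each transferase gene (1 panel per gene, each with its own axis) in every rat, by group; dots are single rats, short lines are group means, grey marks vehicles, and light vertical lines part each compound and its vehicle from the next. Gstm3 is high in ANIT and MDA livers alone, Gstp3 is low in the same livers, and the APAP samples of Gsta3, Gstp1 and Mgst2 stand above their vehicle.

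Gstt1, the theta-class gene whose enzyme handles small halogenated compounds, was not called under any compound. Its log2 values were 11.93, 12.19 and 12.22 under APAP against 11.66, 11.71 and 11.42, all above the vehicle, with a log2 change of 0.52 ± 0.111 (adjusted p = 0.167). Under MDA they were 11.50, 11.93 and 11.68 against 11.89, 11.94 and 11.88, where the groups overlapped (-0.20 ± 0.116, adjusted p = 0.345). The MDA and APAP effects differed by -0.72 ± 0.168, which was called (adjusted p = 0.0247). The call was lost without APAP sample 2 (-0.68) or 3 (-0.67), ethanol sample 2 (-0.70) or corn oil 2 ml/kg sample 3 (-0.63). Under ANIT the values were 11.49, 12.02 and 11.41 against 11.41, 11.19 and 11.63, and under DCLF 12.03, 11.53 and 11.63 against 11.33 and 11.65. Both pairs of groups overlapped (0.23 ± 0.179, adjusted p = 0.526, and 0.24 ± 0.167, adjusted p = 0.577).

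Mgst2, a membrane-bound transferase that can also form leukotriene C4, had the tightest treated group. Its log2 values were 12.82, 12.83 and 12.80 under APAP against 12.06, 11.83 and 11.64 in corn oil at 2 ml/kg. All APAP samples lay above the vehicle, and Mgst2 rose by 0.97 ± 0.107, or 1.96-fold (adjusted p = 0.0173). The call was lost without APAP sample 1 (0.97), 2 (0.97) or 3 (0.98), or corn oil 2 ml/kg sample 2 (0.97), although the size hardly moved.

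Under MDA the Mgst2 values were 12.46, 12.47 and 12.66 against 12.07, 11.84 and 12.19, and under ANIT 12.37, 12.12 and 12.21 against 11.86, 11.77 and 11.88. Neither pair of groups overlapped, and both changes passed on the adjusted p but not on the fold. They were 0.50 ± 0.114 (adjusted p = 0.0246) for MDA and 0.40 ± 0.0885 (adjusted p = 0.0299) for ANIT, and the MDA change was called after quantile normalisation (0.69). Under DCLF the values were 11.68, 11.66 and 11.90 against 11.95 and 12.00, all below the vehicle (-0.23 ± 0.0986, adjusted p = 0.405). The APAP effect exceeded the DCLF effect by 1.20 ± 0.154 (adjusted p = 0.0184). That call was lost without APAP sample 1 (1.20), DCLF sample 1 (1.17), corn oil 2 ml/kg sample 2 (1.19) or water sample 1 (1.23) or 2 (1.18), and after quantile normalisation (1.08). The ANIT effect differed from the APAP effect by -0.58 ± 0.142, with an adjusted p of 0.0365 but under the fold threshold. It passed that threshold without ANIT sample 1 (-0.64) or corn oil 2 ml/kg sample 1 (-0.69).

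Mgst1, the widely expressed microsomal form, was among the brightest probe sets of every array. Its log2 values were 14.51, 14.71 and 14.80 under MDA against 14.98, 14.96 and 15.06, all below the vehicle (log2 change -0.33 ± 0.0996, adjusted p = 0.0676). Under APAP the values of 14.96, 15.01 and 14.98 lay just above those of the vehicle, 14.95, 14.93 and 14.91 (0.05 ± 0.0647, adjusted p = 0.83). Under DCLF they were 14.96, 14.85 and 14.92 against 14.94 and 14.94 (-0.03 ± 0.0782, adjusted p = 0.889). Under ANIT they were 14.15, 14.29 and 14.81 against 14.91, 14.25 and 14.92, and the groups overlapped (-0.28 ± 0.226, adjusted p = 0.551). The 3 lowest of these ANIT-study values are from the 3 arrays with the lower brightest value.

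**Figure D3:**
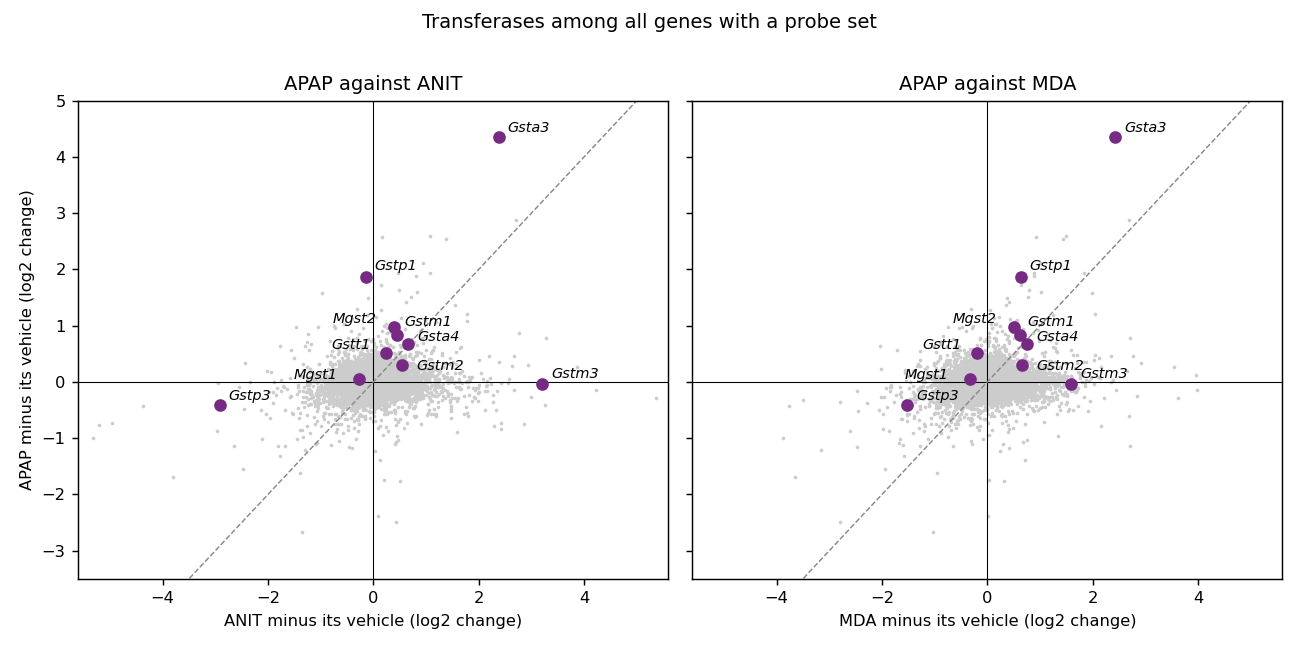
Log2 change under APAP (vertical axis) against that under ANIT (left) and MDA (right), each against its own vehicle, for the 14217 genes with a probe set (grey) and the 10 transferases (purple); the dashed line marks equal change. Gsta3 lies above the line in both panels, Gstm3 lies near 0 for APAP and at 3.20 and 1.59 for ANIT and MDA, and Gstp1 lies at 1.86 for APAP and at -0.15 and 0.63.

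Of 13 genes of glutathione synthesis and recycling, 3 were called higher under APAP and 0 lower. They were Gclm (1.02 ± 0.103) and Gclc (0.96 ± 0.126), the modifier and catalytic subunits of glutamate-cysteine ligase, and Gsr (0.82), which recycles oxidised glutathione. Under ANIT 0 were higher and 2 lower, Gclc (-0.72 ± 0.0903) and the glutathione-degrading enzyme gene Chac2 (-0.81 ± 0.174). Under MDA 0 were higher and 2 lower, Chac2 (-1.41 ± 0.168) and Cbs (-1.14 ± 0.0852), which leads homocysteine towards cysteine. The ANIT effect on Gclc lay below the APAP effect (difference -1.68 ± 0.162 log2 units, adjusted p = 0.000143), as did that of MDA (-1.49 ± 0.186, adjusted p = 0.000818). The list medians were -0.27, -0.12, 0.11 and -0.14 under ANIT, MDA, APAP and DCLF, and 0 of 13 were called under DCLF, where Chac2 changed most (-0.40 ± 0.126, adjusted p = 0.317).

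Of 17 other transferase genes measured, 0 were called higher and 2 lower under ANIT. They were Gstm7 (-0.81 ± 0.158) and Gstz1 (-0.81 ± 0.0873), whose enzyme isomerises maleylacetoacetate. Under MDA 3 were higher and 3 lower, with Gstm7 (-0.96 ± 0.217) and Gstz1 (-0.92 ± 0.142) moving most. Under APAP and DCLF limma called 0. Gstt3, the neighbour of Gstt1 on chromosome 20, had the largest APAP value (1.503 ± 0.442, adjusted p = 0.314), and Ltc4s the largest DCLF value (0.89 ± 0.316, adjusted p = 0.341). The medians were 0.10, 0.16, 0.17 and 0.03 under ANIT, MDA, APAP and DCLF.

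Among the export pump genes, Abcc3, which encodes a pump of the sinusoidal membrane, rose under ANIT (2.70 ± 0.348), MDA (2.69 ± 0.118) and APAP (2.87 ± 0.0931). Export itself was not measured. The ANIT and APAP effects on Abcc3 differed by -0.17 ± 0.401, with a 95% interval of -1.04 to 0.70 (adjusted p = 0.871). Of 6 pumps, 1 was called higher under ANIT, 3 under MDA and 2 under APAP, with 0 lower in each. Abcc4, of the same membrane, rose by 0.79 ± 0.149 under MDA and 1.62 ± 0.109 under APAP. Of 11 genes of the mercapturate route, Nat8, the N-acetyltransferase of the last step, was lower under ANIT (-1.56 ± 0.142) and MDA (-1.71 ± 0.168), and 0 others were called. Nat8 was at 0.56 ± 0.195 under APAP (adjusted p = 0.384), and the ANIT and MDA effects lay below the APAP effect (differences -2.12 ± 0.266, adjusted p = 0.000864, and -2.27 ± 0.284, adjusted p = 0.000818). Under DCLF 0 of the 6 pumps and 0 of the 11 mercapturate genes were called, with Abcc4 at -0.32 ± 0.153 and Acy3 at 0.30 ± 0.12.

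Other NRF2 targets were called higher under the same 3 compounds: 7 of 15 under ANIT, 6 under MDA and 5 under APAP, with 0 lower and with 0 under DCLF. The list medians were 0.50, 0.47, 0.79 and -0.04 under ANIT, MDA, APAP and DCLF. Gpx2, a glutathione peroxidase, led under ANIT (3.27 ± 0.351) and MDA (2.70 ± 0.365), followed by Pgd (1.09 ± 0.105) under ANIT and Ephx1 (1.84 ± 0.121) under MDA. Akr7a3, an aflatoxin aldehyde reductase, led under APAP (2.58 ± 0.0724), followed by Nqo1 (1.60 ± 0.0945). The ANIT effect exceeded the APAP effect for Gpx2 by 2.50 ± 0.534 (adjusted p = 0.019) and lay below it for Akr7a3 (difference -2.42 ± 0.207, adjusted p = 7.24e-05). Of 7 genes that control NRF2, limma called 0 under any compound. Mafk under ANIT (0.47 ± 0.103) and Maff under MDA (0.58 ± 0.147) passed on the adjusted p alone.

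The AhR target Cyp1a1 rose by 3.87 ± 0.129 under ANIT and 3.54 ± 0.295 under MDA, and 2 of 6 AhR targets were called under ANIT, 1 under MDA and 0 under APAP or DCLF. Cyp1a2 was at -0.76 ± 0.136 under APAP (adjusted p = 0.0966). Of 9 CAR and PXR genes and targets, 2 were higher and 3 lower under ANIT, led by Cyp3a18 (-1.58 ± 0.124) and Ugt2b1 (1.55 ± 0.179). Ces2c was the single call under MDA (1.07 ± 0.115) and Ugt2b1 the single call under APAP (1.37 ± 0.114), with 0 under DCLF.

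**Figure D4:**
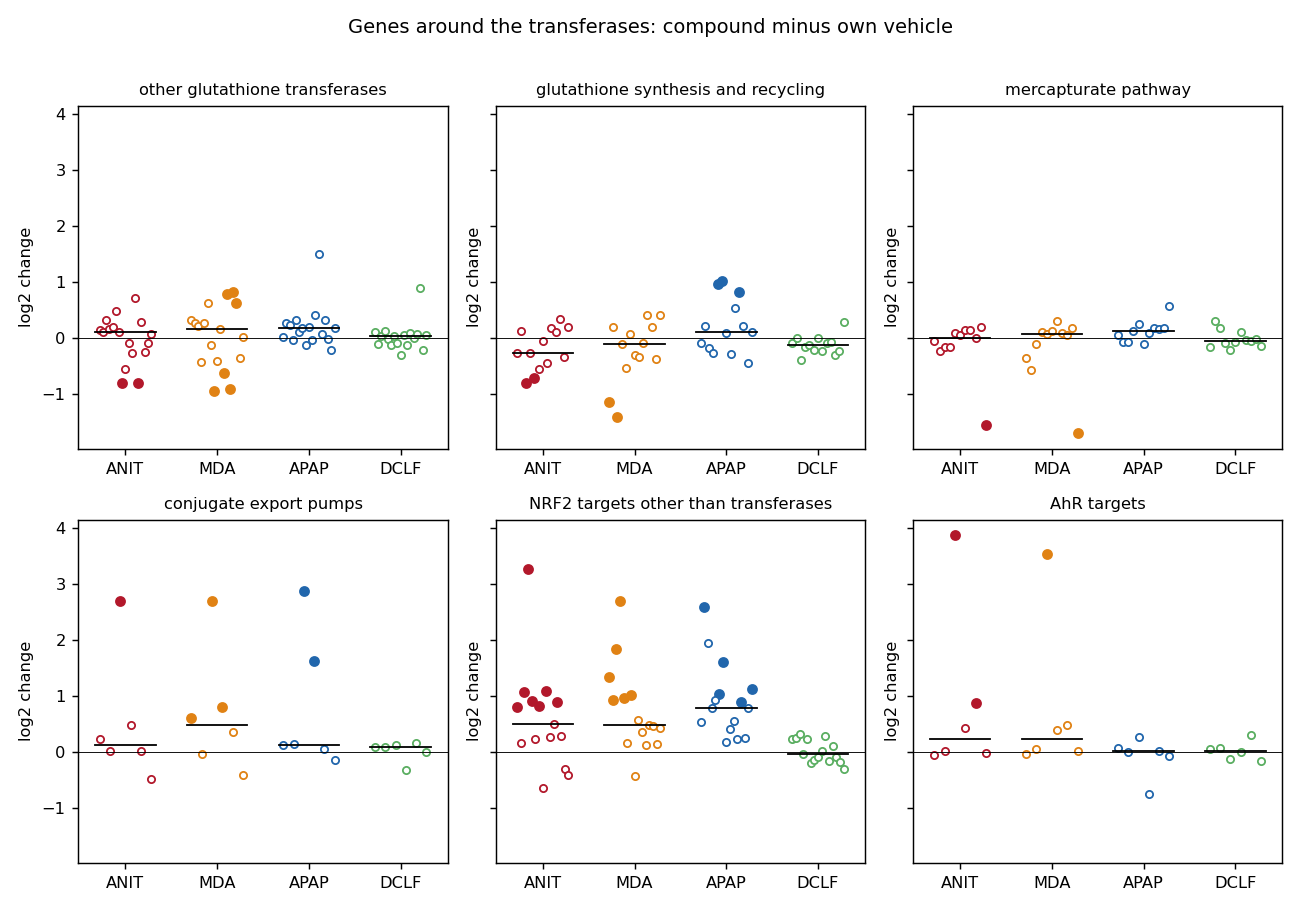
Log2 change of every measured gene of 6 lists under each compound against its own vehicle; filled points passed the call, open points did not, and black lines are list medians. Glutathione synthesis and recycling has called points below 0 under ANIT and MDA and above 0 under APAP, export pumps have Abcc3 at 2.70, 2.69 and 2.87, and DCLF has no filled point.

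Some markers of other cells were called under ANIT and MDA as well. Of 6 macrophage markers 1 was called higher under ANIT and 5 under MDA, with a mean log2 value of 11.4 to 11.634 under MDA against 10.481 to 10.842 in ethanol. Under ANIT the macrophage mean was 10.842 to 11.344 against 10.937 to 11.031 in its vehicle, so those groups overlapped. Cd163 changed by 0.83 ± 0.197 under ANIT, and Adgre1 by 1.10 ± 0.178 and Cd163 by 0.99 ± 0.127 under MDA. The ANIT effect on Adgre1 lay below the MDA effect (difference -1.49 ± 0.315, adjusted p = 0.0429). Of 5 stellate cell markers, 2 were higher and 1 lower under ANIT, and 2 higher and 2 lower under MDA. Their mean was 10.094 to 10.513 under ANIT against 10.154 to 10.258 in its vehicle. It was 10.115 to 10.147 under MDA against 9.751 to 10.16, so both pairs of groups overlapped. Col1a1 changed by 1.14 ± 0.228 and 1.55 ± 0.182 under ANIT and MDA, and Lrat by -1.33 ± 0.316 and -1.83 ± 0.255. Of 3 erythroid markers 2 were lower under ANIT, 2 under MDA and 1 under APAP, where Hbb changed by -2.66 ± 0.31. Hbb and Alas2 changed by -1.35 ± 0.124 and -1.40 ± 0.234 under ANIT and by -1.04 ± 0.198 and -0.95 ± 0.21 under MDA. Of 3 endothelial markers Kdr was lower under ANIT (-0.73 ± 0.131), and of 5 neutrophil markers 0 were called. The neutrophil mean was 7.473 to 7.73 under ANIT against 7.326 to 7.451 in its vehicle, and 7.456 to 7.629 under MDA against 7.28 to 7.367. It also lay above its vehicle under DCLF, at 7.319 to 7.414 against 7.22 to 7.272. The part of these cells in the transferase changes was not tested.

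For the 3 members with the largest changes, the genes nearest in their 4 log2 changes were found by Euclidean distance over all genes with a probe set. Gsta3 had no close match: Abcc3 (distance 1.63), Phgdh (2.29) and the asparagine synthetase gene Asns (2.37) came nearest. Gstm3 lay closest to Ccna2 (0.17), a cyclin gene, Gucy2c (0.24) and the proliferation marker Mki67 (0.39). Under ANIT, MDA, APAP and DCLF Ccna2 was at 3.19, 1.72, -0.10 and 0.12. Gstp3 lay closest to LOC102554026 (0.66), Serpina3l (0.66) and Ust5r (0.67). These distances rest on 4 values per gene and are descriptions.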

How the data were processed

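Total RNA from the left lateral liver lobe of 23 rats was labelled with biotin and hybridised to Affymetrix rat arrays. The authors normalised the arrays by robust multichip averaging in Array Studio and deposited the log2 values used here, with no further scaling. The file held 31099 probe sets, and 57 Affymetrix controls were left out of the tests. RNA sequencing and rats given carbon tetrachloride are not analysed here.

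Probe sets were named through the platform annotation and RefSeq names (GRCr8). Where a gene had several probe sets naming it alone, the highest mean over the 23 samples decided. Compounds were each tested against their own study's vehicle in R 4.3.3 with limma 3.58.1 (lmFit, eBayes, two-sided, Benjamini-Hochberg over 31042 probe sets), using only the groups concerned. Differences between effects (ANIT minus MDA, ANIT minus APAP, MDA minus APAP, APAP minus DCLF) were contrasts over 4 groups, and 3 of them share the APAP samples or their vehicle. The code was tested on simulated data. A value after ± is a standard error from limma. Precision is limited by the number of arrays.

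The members and gene lists were chosen with earlier results of these data known. All members are named. Of each other list, the text names the 2 genes with the largest absolute log2 change among those called in a comparison, or, where none was called, the gene with the largest change. It also names the 3 genes nearest to each of the 3 members with the largest changes. Gsr and the cholangiocyte markers called were named after their values were seen, as were further differences between effects for listed genes. Values of cell markers that were not called are left out. So are those of Cyp1b1, an AhR target called under ANIT, and of Maff under APAP. The genes due under DCLF from the NRF2, AhR, and CAR and PXR lists are also left out. The alternatives were quantile normalisation, median centring, the mean of all probe sets of a gene, leaving out the dimmest 25% of probe sets, limma with a trend, 1 fit over all 8 groups, leaving out each animal, and the t-test of the study's methods with adjusted p. That t-test was run only against a vehicle, not for differences between effects. Its version with an unadjusted p under 0.01 was added after seeing the data. All 3 samples of corn oil at 5 ml/kg have titles ending in the same animal number; the differing numbers at the front were read as the rats.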

Additional observations from a re-analysis of the deposited data

Results flagged for a closer look

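Of the 10 members, 6 had at least 1 difference between the effects of 2 compounds that passed limma's adjusted p under 0.05 and the fold threshold, and these 12 differences are given here on the log2 scale. For Gsta3 they were -1.97 for ANIT minus APAP, -1.92 for MDA minus APAP and 4.77 for APAP minus DCLF. For Gstm3 they were 1.62 for ANIT minus MDA, 3.23 for ANIT minus APAP and 1.61 for MDA minus APAP. Gstp1 had -2.00 for ANIT minus APAP and -1.23 for MDA minus APAP, and Gstp3 had -2.50 and -1.10 for the same differences. Gstt1 had -0.72 for MDA minus APAP, and Mgst2 had 1.20 for APAP minus DCLF. Of all probe sets, 1.16% were called for ANIT minus MDA and 4.07% for ANIT minus APAP. The shares were 5.09% for MDA minus APAP and 0.0709% for APAP minus DCLF. The share with at least 1 call over these overlapping differences is not given, so the count of 6 members has no background. With groups of 3 or 2 animals, single samples far from their group were not tested.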

How the results depend on the processing

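No value called against a vehicle reversed: of 195 alternative values for the 15 called ones, 0 changed sign and 44 lost the call, and 7 of the 15 were called under every alternative with limma. Of 214 alternative values for the 12 called differences, 0 changed sign and 26 lost the call, and 7 of the 12 kept it under every alternative with limma. The t-test of the study's methods was not run for differences, so these calls were not put to it. The adjusted t-test of the study's methods called 1 member under ANIT, 0 under MDA and 0 under APAP. With an unadjusted p under 0.01 and the fold threshold it passed 4, 5, 4 and 0 under ANIT, MDA, APAP and DCLF. Shares of all probe sets passing that looser rule, or called under any alternative, are not given. Counts of members under them therefore cannot be set against a background. After quantile normalisation 2 members were called for the ANIT and MDA difference and 1 for the APAP and DCLF difference, and 1 fit over all 8 groups called 3 for MDA minus APAP, losing Gstp3 and Gstt1. That fit also called Gstp1 for APAP minus DCLF (1.91, adjusted p = 0.0133 against 0.0927 over 4 groups). With each animal left out in turn, the members called numbered 3 to 5 under ANIT, 4 to 7 under MDA, 1 to 2 under APAP and 0 to 0 under DCLF. For the differences they numbered 1 to 2 (ANIT minus MDA), 3 to 5 (ANIT minus APAP), 3 to 5 (MDA minus APAP) and 1 to 2 (APAP minus DCLF). ANIT minus APAP for Gstm1 was called without ANIT sample 3 (-0.61).

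Signs changed only for values that were not called. After quantile normalisation ANIT minus APAP was 0.10 for Gsta4 (0.022 after median centring) and 0.22 for Gstm1, ANIT minus MDA was 0.40 for Gstm1, and Mgst1 was -0.0358 under APAP, 0.00326 under DCLF and -0.039 for APAP minus DCLF. Gstp1 under DCLF was 0.0477. With an animal left out, values ran across 0 for Gstp1 under ANIT (-0.34 to 0.0139), Gstm3 under APAP (-0.0775 to 0.0131), and Gstm2 (-0.0837 to 0.31) and Gstp1 (-0.33 to 0.22) under DCLF. The same held for ANIT minus MDA of Gsta3 (-0.55 to 0.26), Gsta4 (-0.36 to 0.0535) and Mgst1 (-0.17 to 0.18), ANIT minus APAP of Gsta4 (-0.12 to 0.11), MDA minus APAP of Gsta4 (-0.0594 to 0.36), and APAP minus DCLF of Gstm2 (-0.0052 to 0.39) and Gstp3 (-0.25 to 0.15). The cause of these changes was not tested. Taking the mean of all probe sets of a gene cannot move a member, since each has 1. No paired analysis was possible because compound and vehicle animals were different rats and the replicate numbers follow sample order.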
